A study of Mus musculus with 76 samples.

Results

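Vessels and alveolar septa dissected from the lungs of wild-type mice that had not been exposed to smoke were compared gene by gene. Arrays were taken by their titles: every control wild-type vessel array (10) and every control wild-type septa array (9), at both the 3 month and the 8 month time points, which made 19 of the 76 arrays of the series. By the mouse numbers in the labels, they came from 10 mice. The series set cigarette smoke against control air and wild-type against Noxo1 knockout mice, with septa and vessels microdissected from 40 animals and each RNA sample hybridized alone in 1 colour to an Agilent mouse array. NOXO1 is the organizer subunit of the superoxide-forming oxidase NOX1, and the series concerns its part in emphysema and pulmonary hypertension caused by smoke.

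At 3 months there were 4 septa arrays and 5 vessel arrays, and at 8 months 5 of each. A pair of the 3 month vessel arrays carried the number of mouse 25 and was averaged, which left 9 septa and 9 vessel replicates. By these numbers, mice 22, 23, 24 and 26 to 30 gave both tissues, mouse 21 gave septa and mouse 25 gave vessels. Per the labels, all animals were housed under standard conditions and are given under the line C57BL/6-Noxo1(tm1881_17.2Arte), wild-type mice included. Exposure in the smoke arm began at week 12, on 5 days a week for 6 hours at 140 mg of particles per cubic metre, and the labels give it a length of 8 months, with the 3 month and 8 month points named in the titles. The mice described first were not exposed. The labels state neither sex nor whether arteries, veins or both were dissected.

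The alveolar septum is the gas exchange wall: flat type 1 pneumocytes and capillary endothelium share a thin basement membrane, type 2 pneumocytes secrete surfactant, and blood leukocytes pass through the capillaries. A pulmonary vessel has a media of contractile smooth muscle and elastic lamellae, an intima of arterial or venous endothelium, and an adventitia of collagen, fibroblasts and nerves. In mice the pulmonary veins also carry a sleeve of heart muscle, and airways run beside the arteries.

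Values below are log2 signals of the brightest probe of a gene, as deposited by the authors, and a difference of 1 is a factor of 2. Levels of different genes are not compared, because each has its own probe. Odorant and vomeronasal receptor genes (n = 1324), which lung is not known to use, served as a guide to background: 95% of them had a mean below 3.30, called the receptor floor here. Where the lower tissue lay under that floor, the fold is given as a lower bound against it. Differences are vessel minus septa from limma, with months as a factor and the mouse as a random block, and genes are called at an adjusted p below 0.05. In tissue pieces, fewer cells of a type and less RNA per cell cannot be told apart.

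The septa arrays were more alike than the vessel arrays. Each septa array had a median correlation of 0.904 to 0.929 with the others, against 0.841 to 0.884 among vessel arrays, and the median SD of a gene was 0.702 in septa and 0.858 in vessels. Xist and 3 Y-linked genes showed that the mouse numbers do not always join arrays of the same animal. The septa of mouse 29 had Xist at 12.48 and Eif2s3y at 2.89, whereas the vessel array with that number had 3.447 and 8.875. A pair in the unexposed knockout, mouse 7, was crossed in the opposite way, with Xist at 2.07 in septa and 12.92 in vessels. The arrays of mice 29 and 7 were all from 8 months. Whether any were exchanged between the genotypes was not tested, and their genotypes are given as labelled. Mouse 22 had high Xist in both tissues, at 10.89 and 12.32, and the other replicates had none above 4.27. Without both arrays of mouse 29, 1556 genes were called, 1405 of them shared with the 1590 of the whole set.

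Heart muscle genes set 3 vessel arrays apart. In the vessels of mice 22, 24 and 26 all 17 measured genes of a heart muscle list were over the receptor floor. The mean level of the list was 11.21, 8.65 and 8.26. Being over the floor did not by itself set these arrays apart, since Myh7 was at 5.18 to 8.48 in septa. Nppa, Ryr2, Myh7 and Actc1 overlapped with the other vessels. In the other 6 vessel replicates the list had a mean of 3.46 to 4.10, with 6 to 9 genes over the floor, and in septa it ran from 2.81 to 3.54. Without those 3 vessel arrays 1222 genes were called, 592 higher in vessels and 630 higher in septa, and 1076 of them were shared. Counts for gene lists below are given again without these arrays, or without both arrays of mouse 29, where that moved them by over 1.5 times.

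Vessel and septa differed in 1590 of 20710 genes, 7.68% of those tested. Higher in vessels were 691 genes (3.34%), by a median of 2.08, and higher in septa 899 (4.34%), by a median of -1.72. The very large differences lay on the vessel side: 95 called genes differed by more than 16-fold, 83 of them higher in vessels and 12 higher in septa. In 247 genes (1.19%) the ranges of the 9 and 9 replicates did not overlap, 175 with vessels above and 72 with septa above. Of the genes higher in vessels 222 had a septal mean under the receptor floor, and of those higher in septa 127 had a vessel mean under it. Of the receptor genes themselves 5 (0.378%) were called. The median difference over all genes was 0.0076. Among the 117 called genes chosen for description, 64 lost their call in the test against 1 log2 unit. In every other alternative fit that tested them, and in every fit without 1 array, 91 kept their call. Sele and Hey2 were not tested with the filter at the receptor floor. Calls that were lost in some fit other than the test against 1 log2 unit were those of Lum, Napsa, Robo4, Cldn5, Selp, Tnni3, Lipe, Tubb3, Mbp, C1qc, Ace, Gzmb, Cd209a, Clec9a, Kit, Treml1, Prrx1, Foxa2, Wnt9a, Angpt2, Cfb, C5ar1, Usp18, Cyba, Prdx6 and Fosb. The counts of list members below should be read against the shares given here.

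**Figure D1:**
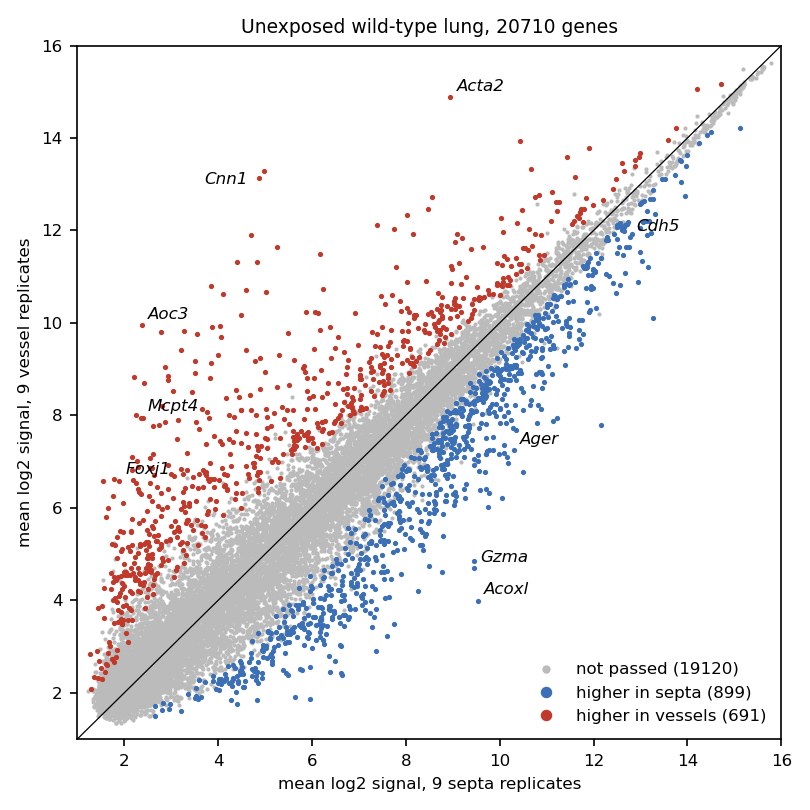
Mean log2 signal of each of 20710 genes in 9 septa replicates (x axis) and 9 vessel replicates (y axis) of unexposed wild-type mice. Red points are the 691 genes called higher in vessels, blue points the 899 called higher in septa, grey points the rest, and the line marks equal means; red points reach farther from the line than blue ones.

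Contractile genes of smooth muscle gave the clearest separation. Of 18 members measured 15 were higher in vessels and 0 in septa, with a median difference of 3.55, and in 12 members no replicate of one tissue reached the range of the other. The other members were Srf (0.09 ± 0.21, SE), Pln (0.17 ± 0.75) and Sync (0.37 ± 0.39). Calponin, Cnn1, an actin-binding protein of contractile smooth muscle, ran from 2.92 to 7.00 in septa (median 4.62) and from 12.22 to 13.94 in vessels (median 13.26). Every vessel array lay more than 5 units above every septum, and the difference was 8.27 ± 0.47, adjusted p = 1.45e-11, or 309-fold. The enteric actin Actg2 ran from 3.46 to 6.26 in septa (median 4.57) and from 11.36 to 12.28 in vessels (median 11.92), a difference of 7.21 ± 0.32, adjusted p = 1.61e-13. Smooth muscle myosin heavy chain, Myh11, ran from 3.60 to 8.03 in septa (median 4.64) and from 10.75 to 12.23 in vessels (median 11.80), and the highest septum was still below the lowest vessel (6.38 ± 0.42, adjusted p = 1.99e-10).

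Alpha smooth muscle actin, Acta2, the abundant actin of the media, was near the top of the scale in vessels, from 14.64 to 15.13, against 7.42 to 10.58 in septa. Its difference was 5.94 ± 0.29 (SE, adjusted p = 1.08e-12) and that of Tagln, transgelin, 3.50 ± 0.15 (adjusted p = 1.61e-13). Both genes were well over the floor in septa, so septa were lower but not without these transcripts. Myocardin, Myocd, the coactivator that drives this programme with SRF, was higher in vessels by 3.60 ± 0.48, while Srf itself, its DNA-binding partner, was not called. The count of 15 was the same in each alternative fit of the whole set other than the test against 1 log2 unit, and in each fit without 1 array.

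The site that SRF binds, the CArG box (CC, then 6 bases of A or T, then GG, a pattern equal to its own reverse complement and so searched on both strands at once), was looked for in RefSeq promoter windows of build GRCm38.p6, from 250 bases before to 50 bases after the start. It was in 1.63% of 32851 windows. By gene, it was in 1.72% of 16203 tested genes with a window, 3.84% of 521 genes higher in vessels, 2.45% of 694 genes higher in septa and 2 of 14 contractile genes, Myl9 and Srf. These are descriptions of the letters, and overlap with other motifs was not examined. Only exact matches within the windows were counted. Near matches, such as ccctatatgg in the windows of Actc1 and Acta2, and sites farther away were not. A gene without a counted box is therefore not shown to lack a site for SRF. The windows of Actc1 and Myl9, higher in vessels, are shown with that of Ager, which was higher in septa and holds the same pattern; capitals mark the CArG box, which starts 47, 161 and 200 bases before the start site. They lie at chr2:114052826-114053125 (minus strand), chr2:156775214-156775513 (plus strand) and chr17:34597600-34597899 (plus strand).
Actc1: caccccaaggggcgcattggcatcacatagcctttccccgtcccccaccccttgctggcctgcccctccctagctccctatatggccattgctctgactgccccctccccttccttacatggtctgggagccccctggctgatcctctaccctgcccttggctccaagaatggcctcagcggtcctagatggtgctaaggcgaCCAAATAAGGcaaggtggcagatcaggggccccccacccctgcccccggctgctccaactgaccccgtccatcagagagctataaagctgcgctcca
Myl9: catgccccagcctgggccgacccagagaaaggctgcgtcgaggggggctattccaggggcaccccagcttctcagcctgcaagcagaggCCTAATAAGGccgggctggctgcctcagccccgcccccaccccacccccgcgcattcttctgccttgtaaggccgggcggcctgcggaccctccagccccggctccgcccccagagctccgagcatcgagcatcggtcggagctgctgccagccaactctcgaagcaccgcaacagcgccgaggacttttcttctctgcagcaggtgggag
Ager: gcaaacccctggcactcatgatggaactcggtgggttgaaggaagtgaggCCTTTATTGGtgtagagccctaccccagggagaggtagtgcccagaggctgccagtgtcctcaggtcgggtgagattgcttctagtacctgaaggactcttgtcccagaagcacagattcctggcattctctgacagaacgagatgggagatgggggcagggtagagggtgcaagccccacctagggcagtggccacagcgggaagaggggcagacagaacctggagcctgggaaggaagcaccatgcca
The boxes read CCAAATAAGG in Actc1, CCTAATAAGG in Myl9 and CCTTTATTGG in Ager. The regulatory light chain Myl9 differed by 4.16 ± 0.24, the cardiac actin Actc1 by 8.30 ± 0.67 and Ager by -3.05 ± 0.67.

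The 12 genes with the largest positive differences reached beyond muscle. Next to Actc1, Cnn1, Actg2, Myh11 and Kcnmb1 they held Aoc3, the semicarbazide-sensitive amine oxidase on the surface of smooth muscle and fat cells. It ran from 1.45 to 4.05 in septa (median 2.37) and from 9.08 to 10.41 in vessels (median 9.95), so 7 of 9 septa lay under the floor, and vessels were at least 94.1-fold higher (7.57 ± 0.40, adjusted p = 3.59e-12). The matricellular protein gene Ccn3 ran from 1.47 to 3.82 in septa (median 2.92) and from 8.61 to 11.20 in vessels (median 9.81), at least 84.2-fold higher in vessels. Plin4, a lipid droplet coat protein, ran from 2.17 to 5.64 in septa (median 3.91) and from 9.37 to 11.73 in vessels (median 10.56), with no overlap. Gabra3, a subunit of the GABA-A receptor, ran from 1.17 to 6.10 in septa (median 3.16) and from 7.88 to 11.34 in vessels (median 9.76) and was at least 57.8-fold higher in vessels. The neurotrophin receptor gene Ntrk3 was at least 36.7-fold higher (6.28 ± 0.56, adjusted p = 3.27e-08). These bounds hold for the brightest probe: with the mean of all probes of the gene, the difference was 3.72 for Ntrk3 and 4.43 for Gabra3, both still called.

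**Figure D2:**
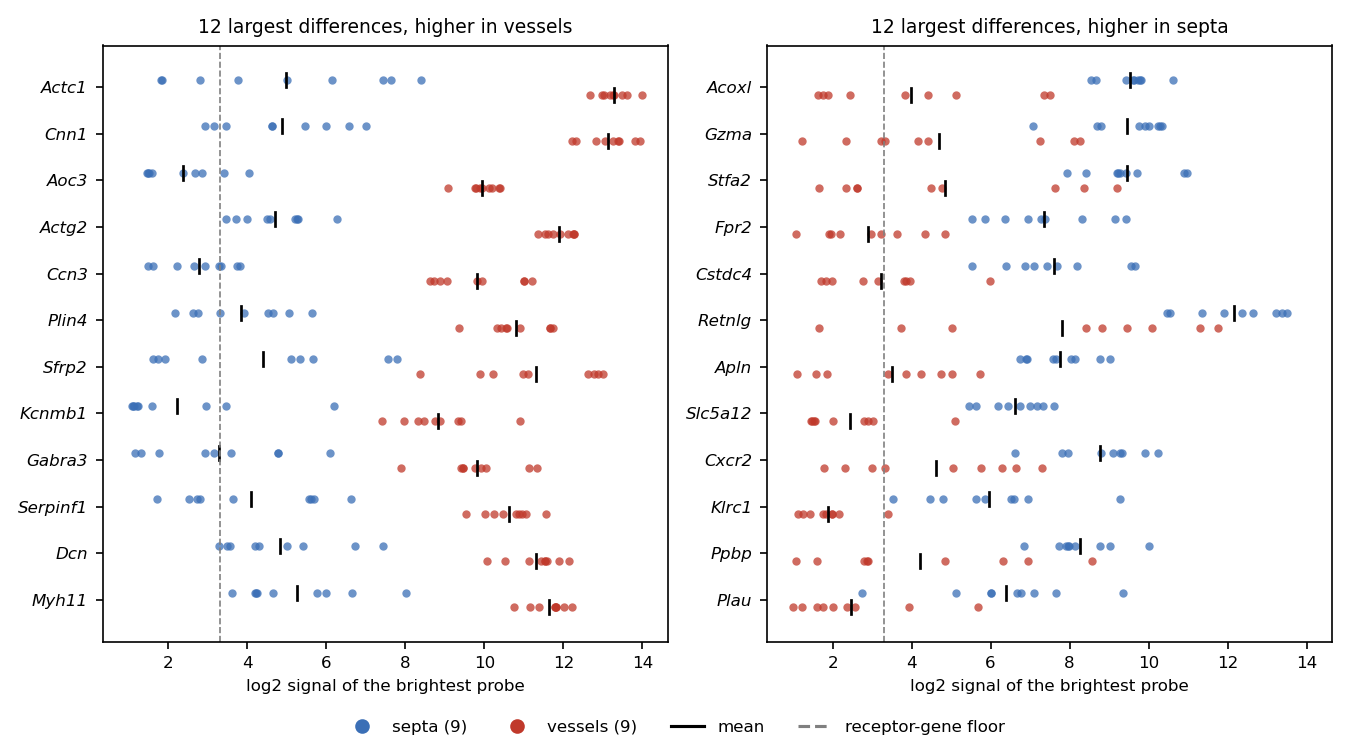
Log2 signal in each of 9 septa (blue) and 9 vessel replicates (red) for the 12 genes with the largest positive (left) and the 12 with the largest negative difference (right), with the mean as a black bar and the receptor-gene floor of 3.30 as a dashed line. The 9 and 9 points are apart for each gene on the left, and for 5 of 12 on the right, where vessel points spread widely.

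Ion channels of vascular muscle were mixed. Of 18 measured, 7 were higher in vessels and 2 in septa (5 and 1 without the vessels of mice 22, 24 and 26). Kcnmb1, the beta subunit that makes the large calcium-activated potassium channel more sensitive to calcium, ran from 1.07 to 6.18 in septa (median 1.24) and from 7.40 to 10.90 in vessels (median 8.75) and was at least 36.5-fold higher in vessels. Its pore-forming partner Kcnma1 was not called, at -0.68 ± 0.61. The voltage-gated channel Kcna5 ran from 1.55 to 3.02 in septa (median 2.24) and from 6.15 to 9.03 in vessels (median 6.91), at least 14.1-fold higher in vessels. Abcc9, the sulfonylurea receptor of the vascular ATP-sensitive channel, was at least 11.2-fold higher, while its partner Kcnj8 was not called (0.70 ± 0.49). Higher in septa were the cation channel Trpc6 (-2.67 ± 0.44, adjusted p = 0.000246) and the T-type calcium channel Cacna1h (-0.64 ± 0.16).

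Of 25 genes for vasoactive ligands, receptors and the cyclic nucleotide pathway, 5 were higher in vessels and 3 in septa. The ATP-gated channel gene P2rx1 ran from 2.83 to 6.22 in septa (median 4.74) and from 10.02 to 11.68 in vessels (median 10.36), with no overlap (6.11 ± 0.39, adjusted p = 1.1e-10). Endothelial nitric oxide synthase, Nos3, ran from 4.56 to 7.57 in septa (median 6.08) and from 7.56 to 9.96 in vessels (median 9.06), with the ranges touching (2.79 ± 0.40, adjusted p = 4.06e-05). Higher in septa was Npr3, the clearance receptor for natriuretic peptides (-2.27 ± 0.42, adjusted p = 0.000956), with Agtr1a (-1.71 ± 0.51) and the guanylate cyclase subunit Gucy1a1 (-0.79 ± 0.23). The septal count of 3 fell to 1 without the septa of mouse 22, 23, 26, 28 or 30, without the vessels of mouse 30, or without 1 of the arrays of mouse 25. Endothelin 1, Edn1, was not called, at -0.00 ± 0.80, with a wide spread.

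Most of the elastic fibre genes that passed the test were higher in vessels. Of 20 measured 9 were higher in vessels and 3 in septa. Elastin, Eln, the core of the lamellae, ran from 6.77 to 10.36 in septa (median 9.70) and from 11.27 to 13.27 in vessels (median 11.61), with no vessel below the highest septum (2.82 ± 0.42, adjusted p = 7.95e-05). Fibulin 2, Fbln2, ran from 2.12 to 4.21 in septa (median 2.81) and from 7.89 to 9.61 in vessels (median 8.87), at least 43.1-fold higher in vessels. Also higher were Fbln1, Fbln5, Fbn1, Ltbp1, Ltbp4, Loxl1 and Mfap5, by 1.06 to 2.46. Higher in septa were Mfap2 (-2.02 ± 0.48), the fibrillin gene Fbn2 (-0.94 ± 0.26) and Mfap4 (-0.70 ± 0.20). The septal count was 1 without the vessels of mice 22, 24 and 26, without the septa of mouse 23 or without the vessels of mouse 30.

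Among 21 interstitial collagens and small proteoglycans 12 were higher in vessels and 2 in septa, and without the vessels of mice 22, 24 and 26 the first count was 7. Decorin, Dcn, which binds collagen fibrils, ran from 3.28 to 7.44 in septa (median 4.30) and from 10.07 to 12.14 in vessels (median 11.53) (6.50 ± 0.48, adjusted p = 1.22e-09). The fibrillar chains Col1a1, Col1a2 and Col3a1 differed by 1.90 ± 0.33, 2.23 ± 0.27 and 1.92 ± 0.44. Col14a1, of the surface of fibrils, ran from 2.34 to 4.77 in septa (median 3.31) and from 4.97 to 8.17 in vessels (median 7.01), without overlap (3.47 ± 0.50, adjusted p = 3.96e-05; 2.29 with the mean of all its probes). The 2 members higher in septa were Col12a1 (-2.01 ± 0.48) and Ogn (-0.60 ± 0.15).

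Basement membrane chains were called in both directions. Of 22 measured 7 were higher in vessels and 2 in septa, with 4 higher in vessels without the vessels of mice 22, 24 and 26 and 4 higher in septa without both arrays of mouse 29. The 2 septal ones were Col4a3 and Col4a4, chains of the collagen IV network of thin gas exchange and filtration membranes. Col4a3 ran from 6.83 to 9.01 in septa (median 8.37) and from 2.15 to 8.00 in vessels (median 5.69) (-3.16 ± 0.74, adjusted p = 0.00681), and Col4a4 differed by -1.81 ± 0.43. Col4a5 (1.19 ± 0.37) and Col4a6 were higher in vessels, and together they form the network of smooth muscle. Col4a5 is also a chain of the network of Col4a3 and Col4a4, so its value does not separate the networks. Col4a6 ran from 5.23 to 6.81 in septa (median 6.05) and from 8.34 to 9.23 in vessels (median 8.85), without overlap (2.76 ± 0.29, adjusted p = 5.31e-07). The ubiquitous chains Col4a1 and Col4a2 were not called, at -0.39 ± 0.28 and -0.84 ± 0.30. Col18a1, the precursor of endostatin, was higher in vessels (3.77 ± 0.39, adjusted p = 3.33e-07).

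Fibroblast markers separated by site. Of 12 adventitial markers 5 were higher in vessels and 1 in septa, whereas of 12 alveolar fibroblast markers 1 was higher in vessels and 6 in septa (median differences 1.38 and -1.12). The Wnt antagonist Sfrp2 ran from 1.62 to 7.79 in septa (median 5.10) and from 8.37 to 13.00 in vessels (median 11.11), and Serpinf1, the gene of pigment epithelium-derived factor, ran from 1.70 to 6.63 in septa (median 3.63) and from 9.54 to 11.56 in vessels (median 10.80). Neither gene overlapped between tissues (6.92 ± 0.62, adjusted p = 3.21e-08 and 6.52 ± 0.55, adjusted p = 1.11e-08). The exception among the adventitial markers was the peptidase gene Dpp4, -2.53 ± 0.43, adjusted p = 0.000309; it is also made by lymphocytes and epithelium. The amino acid transporter gene Slc7a10 ran from 5.65 to 7.83 in septa (median 6.56) and from 1.66 to 4.32 in vessels (median 3.27) and was at least 8.43-fold higher in septa. Tcf21, the transcription factor of lipid-bearing alveolar fibroblasts, ran from 7.39 to 9.87 in septa (median 8.53) and from 5.00 to 7.57 in vessels (median 6.99) (-1.81 ± 0.39, adjusted p = 0.00362). Itga8 went the other way, higher in vessels by 1.32 ± 0.26.

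Pericyte markers showed no common direction, with 3 of 12 higher in each tissue. Higd1b, a marker of lung capillary pericytes, ran from 9.21 to 10.91 in septa (median 10.17) and from 5.57 to 9.07 in vessels (median 6.33) (-3.05 ± 0.43, adjusted p = 3.04e-05), and Cox4i2 differed by -1.76 ± 0.35. Cspg4 ran from 1.97 to 5.99 in septa (median 3.57) and from 4.78 to 8.32 in vessels (median 6.48) (2.78 ± 0.55, adjusted p = 0.00164), and Notch3 differed by 1.33 ± 0.35; both are also made by smooth muscle. Pdgfrb, shared by pericytes and smooth muscle, was not called, at 0.20 ± 0.16. None of 8 mesothelial markers passed the test in either direction, with differences of -1.44 to 0.31.

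Endothelial genes shifted by vessel type. Of 12 pan-endothelial markers 3 were higher in septa and 0 in vessels (1 in septa without the vessels of mice 22, 24 and 26), and VE-cadherin, Cdh5, differed by -0.92 ± 0.16, adjusted p = 0.00032. Of 13 capillary markers 7 were higher in septa and 0 in vessels, with a median of -1.09. The peptide gene Apln, of capillary endothelium, ran from 6.75 to 9.02 in septa (median 7.65) and from 1.09 to 5.73 in vessels (median 3.87), without overlap (-4.25 ± 0.59, adjusted p = 2.54e-05). Gpihbp1, which holds lipoprotein lipase on the capillary wall, ran from 10.44 to 11.45 in septa (median 11.26) and from 7.26 to 10.34 in vessels (median 9.29), also without overlap (-2.22 ± 0.36, adjusted p = 0.000183). Car4, a marker of the large alveolar capillary cells, differed by -1.19 ± 0.26.

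The markers of larger-vessel endothelium that passed the test were higher in vessels. Of 11 arterial markers 4 were higher in vessels and 0 in septa, and of 12 venous markers 6 and 0. T-cadherin, Cdh13, ran from 3.69 to 6.58 in septa (median 5.35) and from 8.31 to 9.90 in vessels (median 9.37) (4.01 ± 0.34, adjusted p = 1.28e-08), and the gap junction gene Gja5 of arterial endothelium ran from 8.14 to 10.09 in septa (median 8.69) and from 10.75 to 12.38 in vessels (median 11.00) (2.18 ± 0.26, adjusted p = 2.33e-06). Neither overlapped, nor did the kinase gene Bmx (1.83 ± 0.26, adjusted p = 4.31e-05). Among the venous genes, carboxypeptidase E, Cpe, ran from 6.34 to 8.93 in septa (median 7.29) and from 11.32 to 12.94 in vessels (median 12.10) (4.73 ± 0.33, adjusted p = 3.89e-10). P-selectin, Selp, and E-selectin, Sele, which slow leukocytes on venules, were at least 4.4-fold and at least 2.4-fold higher in vessels (the call for Selp was lost without the vessels of mice 22, 24 and 26), and von Willebrand factor, Vwf, differed by 2.16 ± 0.17. Other markers of these lists did not pass, among them Sox17 (-0.78 ± 0.26), Efnb2 (-0.01 ± 0.26), Nr2f2 (0.47 ± 0.39) and Ephb4 (-0.62 ± 0.20). Of 7 lymphatic markers 1 was called in each direction, Lyve1 (0.72 ± 0.16) and Pdpn (-1.45 ± 0.27), and Pdpn is also a type 1 pneumocyte gene.

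Most pneumocyte markers were higher in septa. Of 14 type 1 markers 13 were higher in septa and 0 in vessels, with a median of -2.01; the 1 that did not pass was Cav1 (-0.07 ± 0.19), which endothelium and muscle also make. The receptor gene Ager ran from 9.38 to 11.58 in septa (median 9.98) and from 2.04 to 9.61 in vessels (median 7.70), and the difference was -3.05 ± 0.67, adjusted p = 0.00439. The ranges overlapped through the vessels of mouse 23, at 9.61, against 9.38 in the lowest septum, and the vessels of mouse 24 were at 2.04. Without the vessels of mice 22, 24 and 26 the difference of Ager was smaller, at -2.14 ± 0.41, and still called. Rtkn2 ran from 6.30 to 7.94 in septa (median 7.41) and from 2.66 to 6.99 in vessels (median 4.50) (-2.69 ± 0.47, adjusted p = 0.000454) and the tight junction gene Cldn18 ran from 7.58 to 9.59 in septa (median 8.63) and from 3.13 to 8.54 in vessels (median 6.21) (-2.62 ± 0.54, adjusted p = 0.0023). Both counts for type 1 markers were the same without mouse 29 and without the vessels of mice 22, 24 and 26.

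Of 14 type 2 markers 11 were higher in septa and 0 in vessels, with a median of -1.46. The lung chemokine gene Cxcl15 ran from 10.67 to 12.28 in septa (median 11.48) and from 6.15 to 11.37 in vessels (median 9.66) (-2.31 ± 0.52, adjusted p = 0.00518) and the phosphate transporter gene Slc34a2 ran from 8.68 to 9.85 in septa (median 9.20) and from 4.79 to 8.90 in vessels (median 7.60) (-1.89 ± 0.43, adjusted p = 0.00552). Sftpc, the surfactant protein made by type 2 cells alone, differed by a smaller -0.91 ± 0.15. In vessels the mean level of the type 1 list ran from 7.46 in mouse 24 to 9.93 in mouse 29, and that of the type 2 list from 7.45 in mouse 22 to 9.81 in mouse 29. Vessel pieces therefore held pneumocyte transcripts in unequal amounts, and the median SD of a type 1 gene was 1.03 in vessels and 0.466 in septa. The part of this in the differences was not tested.

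Ciliated airway cell markers were higher in vessels in 6 of 12 cases and in septa in 0, with a median of 1.71. Foxj1, the master regulator of motile cilia, ran from 1.06 to 2.86 in septa (median 1.91) and from 1.37 to 8.86 in vessels (median 7.33), and vessels were at least 9.8-fold higher (4.70 ± 0.71, adjusted p = 7.98e-05). Tmem212 ran from 1.12 to 2.96 in septa (median 1.50) and from 1.60 to 8.83 in vessels (median 6.90) and was at least 10-fold higher in vessels. Ccdc153 ran from 1.86 to 5.62 in septa (median 3.36) and from 1.88 to 10.61 in vessels (median 9.39) (4.48 ± 0.85, adjusted p = 0.00109). The overlap came from mouse 22: its vessels had Foxj1 at 1.37, Tmem212 at 1.60 and Ccdc153 at 1.88, while the other 8 vessel replicates had Foxj1 between 5.42 and 8.86. Of 10 club and goblet cell markers none passed the test in either direction, although 2 were called higher in vessels without the vessels of mice 22, 24 and 26, with Scgb1a1 at 0.31 ± 0.21 and differences of -0.57 to 1.22. None of 6 basal cell markers passed, with differences of -0.87 to 0.28.

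**Figure D3:**
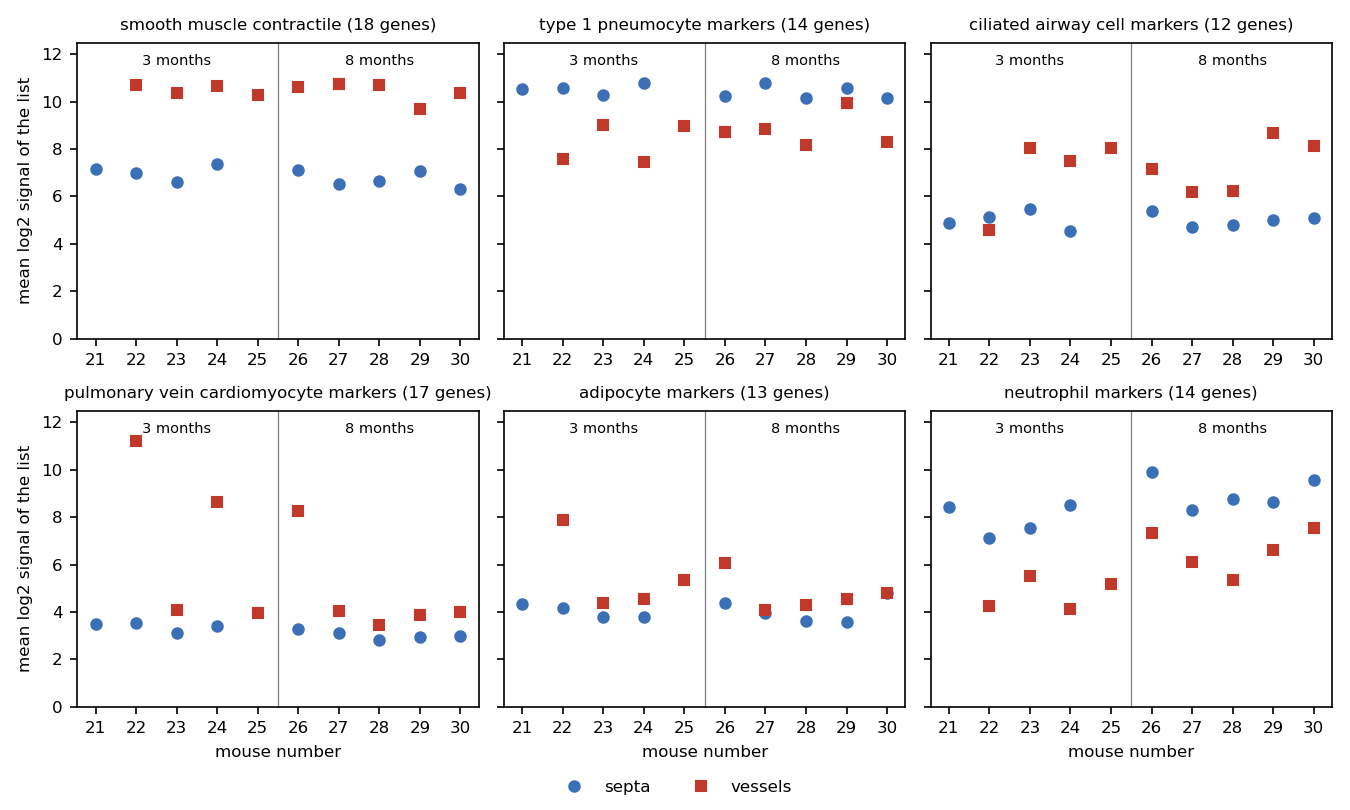
Mean log2 signal of 6 gene lists (y axis) in septa (blue circles) and vessels (red squares) of each mouse (x axis, mouse number; 3 month animals left of the line, 8 month animals right). Smooth muscle genes are higher in each vessel array, ciliated genes in all but that of mouse 22, and heart muscle genes stand out in the vessels of mice 22, 24 and 26.

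Heart muscle genes were called in 4 of 17 cases, all higher in vessels (2 without the vessels of mice 22, 24 and 26), with a median of 2.06. Actc1 was unlike the rest: it ran from 1.80 to 8.41 in septa (median 5.00) and from 12.67 to 13.99 in vessels (median 13.25), was high in every vessel replicate, and differed by 8.30 ± 0.67, adjusted p = 6.42e-09; without those 3 arrays the value was 8.32 ± 0.81 (adjusted p = 5.59e-07). Smooth muscle also makes cardiac actin. Tnnt2, cardiac troponin T, was at 11.45, 10.34 and 9.135 in the vessels of mice 22, 24 and 26 and between 2.41 and 6.46 in the other 6, and its difference of 4.49 ± 0.97 became 2.42 ± 0.53 without them. The call for Tnni3, cardiac troponin I, was lost without them (1.56 ± 0.51, adjusted p = 0.0835, against 3.40 ± 0.90).

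Myh6, a heart muscle myosin gene, and Sln split the vessel arrays into those with and those without the list. Myh6 was at 14.04, 13.93 and 13.03 in the 3 and between 2.22 and 4.15 in the other 6. Sln, sarcolipin of atrial muscle, was at 12.01, 9.95 and 7.82, and between 1.21 and 2.28 in the others. The septa of mice 22, 24 and 26 did not share this, with Myh6 at most 5.72 and Sln at most 2.22 in any septum. Neither gene passed the test of vessel against septa (Myh6 3.32 ± 1.43 and Sln 2.90 ± 1.15). Nppa, Ryr2, Myh7 and Actc1 did not split the arrays, while for every other member of the list the 3 lay above the other 6. Nppa was at 9.74, 4.22 and 3.56 in the vessels of mice 22, 24 and 26, and between 2.54 and 5.12 in the other 6. Myh7 was at 7.34, 5.63 and 5.67, and between 3.99 and 7.64 in the other 6.

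Fat cell markers were called in 3 of 13 cases, 2 higher in vessels and 1 in septa. Plin4 has been given above, and the fatty acid binding protein gene Fabp4, which capillary and larger-vessel endothelium also make, ran from 1.88 to 6.72 in septa (median 5.38) and from 6.12 to 11.71 in vessels (median 8.33) (3.67 ± 0.75, adjusted p = 0.00213). Adipoq, adiponectin, was not called (1.42 ± 0.72); it was at 8.96 in the vessels of mouse 22 and 5.33 in those of mouse 26, and at most 4.50 in the 6 vessel replicates without the heart muscle list. Hormone-sensitive lipase, Lipe, was higher in septa (-1.48 ± 0.44, adjusted p = 0.0389), a call lost in 9 of 19 fits without 1 array and without mouse 29, which left 0 fat cell markers higher in septa. Of 10 nerve and Schwann cell markers Tubb3 was higher in vessels and Mbp in septa, with differences of 1.95 ± 0.59 and -1.60 ± 0.41. Without the vessels of mice 22, 24 and 26 the vessel count was 0, and with the mean of all its probes Mbp was not called, at -0.86. None of 8 cartilage markers passed, and all lay under the receptor floor in both tissues.

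Blood leukocyte genes were higher in septa. Of 14 neutrophil markers 11 were higher in septa and 0 in vessels, with a median of -2.98. The granule protein gene Retnlg ran from 10.47 to 13.50 in septa (median 12.37) and from 1.66 to 11.74 in vessels (median 8.82) (-4.35 ± 0.67, adjusted p = 0.000113). Fpr2, a receptor for formyl peptides, ran from 5.52 to 9.43 in septa (median 7.27) and from 1.07 to 4.85 in vessels (median 2.96), without overlap, and septa were at least 13.3-fold higher. The chemokine receptor Cxcr2 and the cystatin-like Stfa2 differed by -4.16 ± 0.62 and -4.60 ± 0.76. The list's mean level varied with the animal in both tissues, from 7.13 to 9.89 in septa and from 4.11 to 7.53 in vessels, and whether this reflects blood left in the tissue was not tested.

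Lymphocyte genes followed. Of 10 B cell markers 5 were higher in septa and 0 in vessels, with Cd79a running from 8.43 to 10.49 in septa (median 9.84) and from 3.01 to 8.12 in vessels (median 6.60) (-3.20 ± 0.52, adjusted p = 0.000218). That count was 3 without the septa of mouse 27 or 29, or without the vessels of mouse 26, 27, 28 or 30. Of 17 T and NK cell markers 4 were higher in septa: Cd3d (-2.94 ± 0.65, adjusted p = 0.00447), Gzma, Gzmb and Nkg7. Granzyme A, Gzma, of cytotoxic lymphocytes, ran from 7.07 to 10.34 in septa (median 9.90) and from 1.22 to 8.26 in vessels (median 4.17) (-4.75 ± 0.70, adjusted p = 6.41e-05), and the NK receptor gene Klrc1 ran from 3.53 to 9.28 in septa (median 5.86) and from 1.11 to 3.41 in vessels (median 1.83), at least 6.28-fold higher in septa. Cd3e, Cd4 and Cd8a were not called, at -0.50 ± 0.47, 0.09 ± 0.26 and -0.23 ± 0.56. No plasma cell marker of 7 passed.

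Myeloid markers differed by type. Of 11 alveolar macrophage markers 1 was higher in septa, the chitinase-like gene Chil3, which neutrophils share; it ran from 8.76 to 13.38 in septa (median 11.01) and from 5.07 to 10.39 in vessels (median 7.69) (-3.27 ± 0.57, adjusted p = 0.00049), and the count was 2 without mouse 29. Of 10 interstitial macrophage markers 3 were higher in vessels, Ccl8, C1qc and Lyve1, and Ccl8 was at least 6.78-fold higher (3.54 ± 0.63, adjusted p = 0.000578). Of 9 monocyte markers Fcgr4 (-2.76 ± 0.43) and Treml4 (-2.38 ± 0.46), genes of patrolling monocytes, were higher in septa, and Ace, made mainly by endothelium, was higher in vessels (0.38 ± 0.09). Among 8 dendritic cell markers Cd209a was higher in vessels (2.42 ± 0.60; 1.41 with the mean of all its probes) and Clec9a in septa (-1.54 ± 0.42), counts of 1 and 1 that were 2 and 0 without the vessels of mice 22, 24 and 26. The mast cell chymase Mcpt4 ran from 1.61 to 3.06 in septa (median 2.26) and from 5.11 to 10.13 in vessels (median 8.08), at least 25.2-fold higher in vessels without overlap, while the other mast cell proteases Cpa3, Tpsb2 and Cma1 were not called (0.27 ± 0.27, 0.50 ± 0.43 and -0.28 ± 0.31). Kit, of mast and progenitor cells, was higher in septa (-2.52 ± 0.65), but not without the vessels of mice 22, 24 and 26. Of the remaining blood cell genes, Ppbp (-4.05 ± 0.74) and Treml1 (-1.83 ± 0.56) of 9 platelet markers and Slc4a1 (-2.46 ± 0.63) of 6 erythroid markers were higher in septa; the call for Treml1 was lost in 13 of 19 fits without 1 array. Without the vessels of mice 22, 24 and 26 1 platelet and 4 erythroid markers were called higher in septa.

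**Figure D4:**
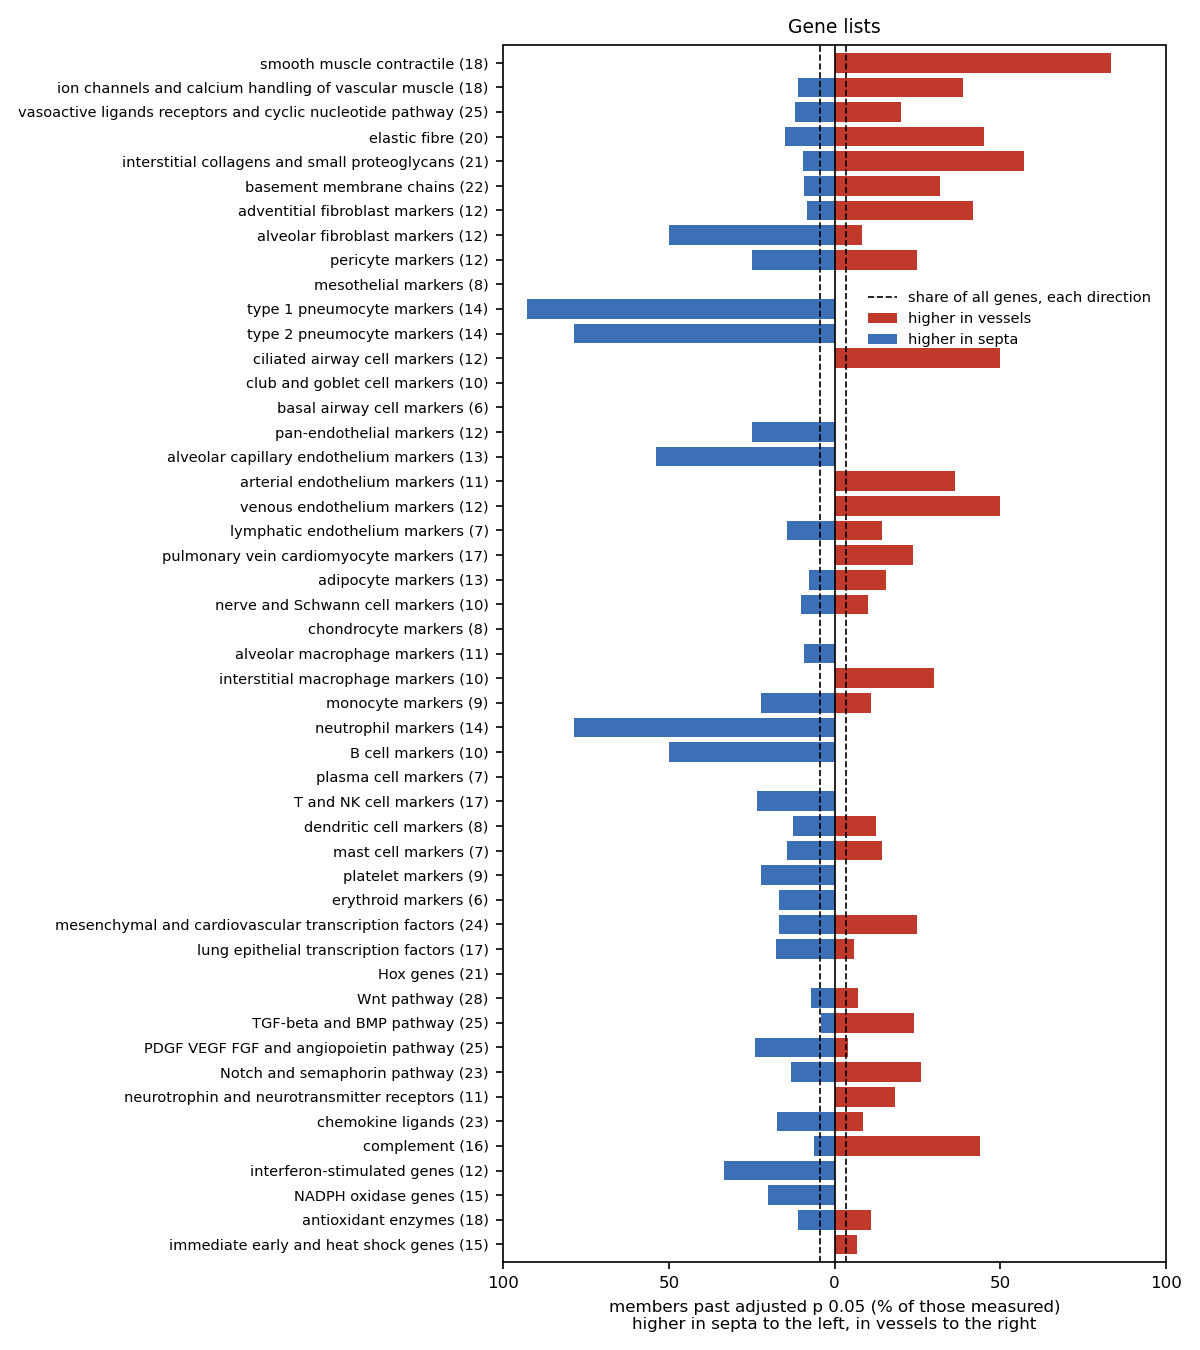
Share of the measured members of 49 gene lists (number in brackets) called higher in vessels (red, right) or higher in septa (blue, left), in percent of those measured. Dashed lines mark the share over all genes, 3.34% and 4.34%; contractile genes reach farthest to the right, and type 1 pneumocyte, type 2 pneumocyte and neutrophil markers farthest to the left.

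Transcription factors mirrored the tissue genes in part. Of 24 mesenchymal and cardiovascular factors 6 were higher in vessels and 4 in septa. Osr1, a factor of adventitial and connective tissue fibroblasts, ran from 1.17 to 2.19 in septa (median 1.52) and from 3.40 to 8.19 in vessels (median 4.97), at least 5.7-fold higher in vessels. The Notch targets Hey2 and Heyl were higher in vessels (2.25 ± 0.46 and 1.72 ± 0.39), as was Gata6 (1.74 ± 0.38). Higher in septa were Tbx3, Tbx4, Foxf1 and Tcf21, factors of lung mesenchyme and endothelium, by -1.19 to -1.97. Of 17 epithelial factors Foxj1 was higher in vessels and Nkx2-1, Foxa2 and Etv5 in septa, and the vessel count was 2 without the vessels of mice 22, 24 and 26, when Foxa2 was not called. Nkx2-1, the lineage factor of distal lung epithelium, ran from 9.19 to 11.26 in septa (median 10.34) and from 5.69 to 10.13 in vessels (median 8.12) (-2.12 ± 0.43, adjusted p = 0.00198). None of 21 Hox genes passed in either direction, with differences of -0.86 to 1.43.

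Signalling genes were called on both sides. Of 25 TGF-beta and BMP pathway genes 6 were higher in vessels and 1 in septa. Inhba, the activin A subunit, ran from 1.04 to 2.30 in septa (median 1.56) and from 1.83 to 8.83 in vessels (median 8.18), at least 9.81-fold higher in vessels, and Tgfb3 ran from 1.74 to 7.65 in septa (median 6.63) and from 8.84 to 10.99 in vessels (median 9.92), without overlap (3.68 ± 0.56, adjusted p = 8.46e-05). Tgfb2, Gdf10, Bmp3 and Id2 were higher by 1.20 to 2.47. The type 2 BMP receptor Bmpr2, mutated in heritable pulmonary arterial hypertension, was higher in septa (-1.19 ± 0.31), and its partners Acvrl1 and Eng were not called (-0.51 ± 0.18 and -0.47 ± 0.19).

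Of 25 PDGF, VEGF, FGF and angiopoietin genes 1 was higher in vessels, Angpt2 (1.49 ± 0.46), a count of 0 without mouse 29, and 6 in septa. The growth factor gene Fgf1 ran from 11.39 to 12.47 in septa (median 11.61) and from 9.21 to 11.01 in vessels (median 10.18), without overlap (-1.69 ± 0.23, adjusted p = 1.96e-05), and Vegfa differed by -1.11 ± 0.23. The others were Pdgfb, Pdgfra, Fgfr1 and Fgfr4. Of 23 Notch and semaphorin genes 6 were higher in vessels, among them Jag1 (1.14 ± 0.25), Notch3, Plxnd1 (1.91 ± 0.27) and Sema3d, and 3 in septa (1 without the vessels of mice 22, 24 and 26), with Sema3c at -2.02 ± 0.33. Of 28 Wnt pathway genes Sfrp2 and Wnt9a were higher in vessels and Wnt3a and the target Axin2 in septa; Wnt9a was not called without mouse 29, which left a vessel count of 1. In the neurotrophin and neurotransmitter list, Gabra3 and Ntrk3 were called among 11.

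Of 16 complement genes 7 were higher in vessels and 1 in septa, and 8 did not pass (5 and 0 were called without the vessels of mice 22, 24 and 26). C4b, of the classical pathway, ran from 6.56 to 9.76 in septa (median 7.83) and from 9.90 to 10.97 in vessels (median 10.19), without overlap (2.37 ± 0.33, adjusted p = 3.23e-05), and factor B, Cfb, ran from 3.06 to 7.87 in septa (median 6.17) and from 5.36 to 10.67 in vessels (median 8.24) (2.40 ± 0.57, adjusted p = 0.00799, not called without the vessels of mice 22, 24 and 26). C1ra, C1s1, C2, Cd59a and Serping1 were the others. The septal one was the C5a receptor gene C5ar1, found on neutrophils (-2.29 ± 0.71). Of 23 chemokine ligands Ccl8 and Ccl11 were higher in vessels, a count of 2 that was 1 without the septa of mouse 22 or 29 or the vessels of mouse 27. Ccl4, Ccl5, Ccl6 and Cxcl15 were higher in septa, and Ccl5 ran from 8.89 to 10.20 in septa (median 9.87) and from 5.94 to 8.48 in vessels (median 7.26), without overlap (-2.51 ± 0.31, adjusted p = 4.76e-06).

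The gene the series is about, Noxo1, did not separate the tissues. It ran from 1.39 to 5.55 in septa (median 3.43) and from 1.96 to 5.88 in vessels (median 3.52), a median just over the receptor floor in both, and the difference was 0.12 ± 0.63, adjusted p = 0.948. Of 15 NADPH oxidase genes 3 were higher in septa and 0 in vessels, and those were subunits of the phagocyte enzyme: Ncf4 (-2.77 ± 0.50), Rac2 (-1.83 ± 0.40) and Cyba (-0.56 ± 0.16). Neutrophil markers, too, were lower in vessels (median -2.98), and their part in these differences was not tested. With the mean of all its probes Cyba was not called, at -0.25. Nox4 (-0.22 ± 0.36), Nox1 (-0.01 ± 0.22) and the dual oxidases Duox1 and Duox2 (-0.43 ± 0.41 and -0.24 ± 0.40) were not called.

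Of 18 antioxidant enzymes 2 were called in each direction. The quinone reductase Nqo1 ran from 1.46 to 5.79 in septa (median 3.98) and from 6.22 to 9.18 in vessels (median 8.22), without overlap (4.13 ± 0.54, adjusted p = 1.16e-05). Gpx3 (-1.15 ± 0.24) and the peroxiredoxin Prdx6 (-1.12 ± 0.26) were higher in septa, the latter not without the vessels of mice 22, 24 and 26. Gpx1 was higher in vessels by 0.48 ± 0.14, and the vessel count of 2 was 1 in 9 of 19 fits without 1 array, 1 without mouse 29 and 1 without the vessels of mice 22, 24 and 26. Interferon-stimulated genes were called in 4 of 12 cases, all higher in septa, with Rsad2 running from 3.41 to 7.95 in septa (median 6.97) and from 1.36 to 5.32 in vessels (median 3.41) (-3.08 ± 0.63, adjusted p = 0.00235). Of 15 immediate early and heat shock genes, which respond to handling of tissue, 1 was called: Fosb, higher in vessels (2.00 ± 0.50); without mouse 29 the septal count was 1 in place of 0.

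The other large septal differences belonged to no list. Acoxl, a relative of peroxisomal acyl-CoA oxidase, had the largest of all in the main fit. It ran from 8.55 to 10.63 in septa (median 9.63) and from 1.64 to 7.49 in vessels (median 3.83), without overlap (-5.54 ± 0.70, adjusted p = 6.82e-06). Over the alternative fits and those without 1 array its difference ran from -6.272 to -3.698, called in each. That of Gzma ran from -5.114 to -4.188, so this rank depends on the fit. The lactate and monocarboxylate transporter gene Slc5a12 ran from 5.46 to 7.60 in septa (median 6.75) and from 1.46 to 5.10 in vessels (median 2.00), at least 8.68-fold higher in septa by its brightest probe; with the mean of all its probes the difference was -2.33, still called, against -4.19 ± 0.50. Urokinase, Plau, ran from 2.73 to 9.34 in septa (median 6.67) and from 0.98 to 5.68 in vessels (median 2.02), at least 6.71-fold higher in septa, though the septa of mice 26 and 28 lay within the vessel range.

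At 3 months 585 genes were called (2.82%), 256 higher in vessels (1.24%) and 329 in septa (1.59%). At 8 months 676 were called (3.26%), 408 higher in vessels (1.97%) and 268 in septa (1.29%). Called at both times in the same direction were 294 genes, 50.3% of the 3 month list and 43.5% of the 8 month list, and 0 were called in opposite directions. No gene passed a limma test for a change of the difference with time at an adjusted p below 0.05. At an unadjusted p below 0.05 there were 1128 genes. The lowest p was that of Trmt10b, a tRNA methyltransferase gene, whose difference rose by 4.28 ± 0.78 (adjusted p = 0.275). In a single set of simulated data with the spreads of these genes, 66 of 20710 genes were changed by each size. There this test found 0% of changes of 1 log2 unit, 10.6% of 2 units and 30.3% of 3 units. Of its calls 10% were genes that had not been changed. The rates hold for that number of changed genes. A count of 0 therefore does not show that the tissue difference stayed the same. The medians of the contractile list were 3.44 at 3 months and 3.59 at 8 months, and those of the type 1 list -2.13 and -1.75. With the mouse as a fixed replicate block, 341 genes were called at 3 months. The 3 month count fell to 359 to 368 without the septa of mouse 21, 22 or 24 or the vessels of mouse 24.

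The same contrast was fitted in 3 further sets of mice with no shared array. In smoke-exposed wild-type mice 1583 genes were called (7.64%), 3.47% of all genes higher in vessels and 4.18% in septa. In unexposed knockouts 1970 were called (9.51%; 3.6% and 5.91%), and in smoke-exposed knockouts 1788 (8.63%; 4.12% and 4.51%). Of the 691 genes higher in vessels in unexposed wild-type mice, 448, 456 and 456 were called in the same direction in these sets, 64.8%, 66.0% and 66.0% of them. Of the 899 higher in septa, 487, 632 and 490 were called again, 54.2%, 70.3% and 54.5%. As shares of the other lists, these are 62.4%, 61.1% and 53.4% of their genes higher in vessels and 56.3%, 51.6% and 52.5% of their genes higher in septa. Called in all 4 sets were 678 genes, 333 higher in vessels and 345 in septa. A single gene was called in opposite directions, in the smoke-exposed wild-type set.

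The largest vessel differences had like values elsewhere. Cnn1 differed by 8.00, 7.79 and 7.62 and Aoc3 by 7.82, 7.33 and 7.16 in the smoke-exposed wild-type, unexposed knockout and smoke-exposed knockout sets. Septal ones were smaller there: Acoxl differed by -3.48, -3.04 and -2.09, against -5.54 in unexposed wild-type mice, and Gzma by -2.53, -4.12 and -3.32, against -4.75. These genes were picked as the extremes of the unexposed wild-type set, which by itself favours a smaller value in other mice. A test of the change in the tissue difference passed for 0 genes with smoke (980 at an unadjusted p below 0.05) and for 0 genes with genotype (924), by limma over 20710 genes. The lowest p values were those of Map3k4 with smoke, at -2.16 ± 0.45 (adjusted p = 0.299), and Bloc1s5 with genotype, at 3.22 ± 0.80 (adjusted p = 1). Both fits share the unexposed wild-type arrays. How large a change they could find was not simulated.

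**Figure D5:**
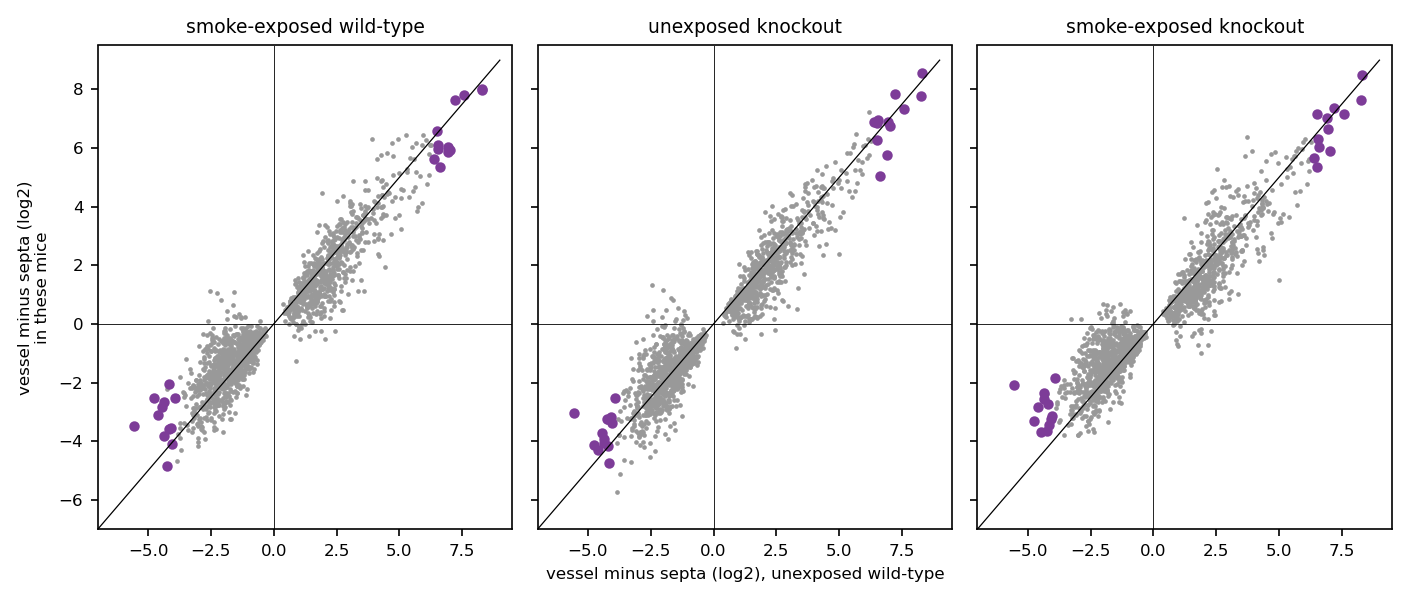
Vessel minus septa (log2) of the 1590 genes called in unexposed wild-type mice (x axis) against the same difference in 3 sets of other mice (y axis, 1 panel each), with the 12 largest in each direction in purple and the line of equal differences. Nearly all points keep their sign, and most septal purple points lie nearer to 0 than the line.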

How the data were processed

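Septa and vessels of mouse lung were microdissected, and amplified RNA was labelled with Cy5 and hybridized in 1 colour to Agilent arrays, per the labels. The values are log2 intensities, deposited by the authors as a table of the whole series; limma is named in the submitters' processing notes, and the background correction and normalization are not given in the sources used here. Column medians lay between 3.1897 and 3.1919. No depth applies to arrays, and their number limits the precision.

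Probes were named through the platform annotation, with symbols updated through accessions where these matched, and the brightest probe of each of 20710 genes was kept. limma 3.58.1 in R 4.3.3 fitted tissue with months as a factor, a trended prior and the mouse as a random block (within-mouse correlation 0.00461), with Benjamini-Hochberg adjustment at 0.05. Scripts were tested on simulated data. The mouse numbers come from the labels; residuals of same-numbered arrays had a mean correlation of 0.0225 (8 pairs, -0.000571 to 0.0411). By their numbers the mice are separate animals, and p-values measure the spread between replicates. That spread holds differences between animals, dissected pieces and arrays together, which were not separated.

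The named genes were the 12 with the largest difference each way whose higher tissue lay above the receptor floor, unnamed gene models apart, up to 3 called members of each of 50 lists with the largest difference, Noxo1, and the gene with the lowest p in each interaction. All other genes were chosen after their values were seen. Of 746 list members 712 were measured, and 34 were not analysed here. The members and lists were chosen with earlier results of these data known. Alternatives were quantile normalization, a filter at the receptor floor, the mean of all probes, array weights, no block or a fixed block, a test against 1 log2 unit, both arrays of mouse 25, the fit without mouse 29, all 75 replicates, each array left out in turn and, chosen after seeing the data, the fit without the vessels of mice 22, 24 and 26. Promoter windows came from RefSeq (GRCm38.p6). Drawing used matplotlib 3.10.9.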

Additional observations from a re-analysis of the deposited data

Results flagged for a closer look

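For 27 of 484 groups of 4 or 5 replicates (5.58%), 1 animal lay far from the others by Dixon's test, which marks about 1 in 20 groups by chance. Each value below is a log2 signal, with the nearest other replicate of its group after it. In septa at 3 months, the lowest value stood apart for Serpinf1 in mouse 24 (1.704, nearest 5.561), Robo4 in mouse 21 (7.992, nearest 8.696), Bmx in mouse 22 (7.319, nearest 7.843) and Chil3 in mouse 24 (9.882, nearest 10.85). In septa at 3 months, the highest value stood apart for Ppbp in mouse 24 (10.01, nearest 7.993), Prrx1 in mouse 22 (5.308, nearest 2.46) and Gdf10 in mouse 23 (3.575, nearest 2.556).

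In septa at 8 months, the lowest value stood apart for Gzma in mouse 30 (8.801, nearest 10.01), Eln in mouse 30 (6.766, nearest 9.466), Fcgr4 in mouse 28 (9.58, nearest 10.15) and Prdx6 in mouse 28 (10.22, nearest 11.19). In septa at 8 months, the highest value stood apart for Kcnmb1 in mouse 26 (6.182, nearest 1.596), Serpinf1 in mouse 26 (6.629, nearest 3.631), Slc34a2 in mouse 29 (9.286, nearest 8.842) and Fgf1 in mouse 28 (12.25, nearest 11.49).

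In vessels at 3 months, the lowest value stood apart for Sfrp2 in mouse 22 (10.21, nearest 12.62), Ppbp in mouse 23 (1.06, nearest 2.805), Tcf21 in mouse 22 (4.997, nearest 7.103), Ccdc153 in mouse 22 (1.879, nearest 9.391), Lyve1 in mouse 24 (11.79, nearest 12.29) and Inhba in mouse 25 (3.339, nearest 8.183). In vessels at 3 months, the highest value stood apart for Cdh13 in mouse 22 (9.902, nearest 9.698).

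In vessels at 8 months, the lowest value stood apart for Dcn in mouse 29 (10.07, nearest 11.43), Chil3 in mouse 26 (5.067, nearest 9.329), Kit in mouse 28 (1.38, nearest 7.134) and Gdf10 in mouse 30 (3.141, nearest 5.952). In vessels at 8 months, the highest value stood apart for Higd1b in mouse 29 (8.71, nearest 6.335). By animal, the 3 month vessels of mouse 22 held 4 of these values, and the septa of mice 24 and 28 held 3 each.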

How the results depend on the processing

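The count of 1590 genes for vessel against septa was 1552 after quantile normalization, 1755 with the filter at the receptor floor, 1555 with the mean of all probes, 1659 with array weights, 1498 with both arrays of mouse 25, 1621 with all 75 replicates, 1556 without mouse 29 and 1222 without the vessels of mice 22, 24 and 26, a choice made after seeing the data. Tested against a difference of 1 log2 unit, 236 genes passed, 174 higher in vessels and 62 higher in septa.

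On the block by mouse, 1576 genes were called with no replicate block and 1282 with the mouse as a fixed replicate block, which at 3 months left 341 genes in place of 585. The numbers pair the samples by the labels, although the sex-linked genes of mouse 29 differ between its arrays.

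Leaving out 1 array gave 1366 to 1653 genes, 359 to 715 at 3 months, 465 to 806 at 8 months and 0 to 1 for the change with months. It gave 1335 to 1702 in smoke-exposed wild-type mice, 1653 to 2030 in unexposed knockouts, 1450 to 1879 in smoke-exposed knockouts, 0 to 1 for the change with smoke and 0 to 0 with genotype. The 1 gene for months came without the septa of mouse 26, and the 1 for smoke without the septa of mouse 27. Noxo1, not called, was -0.302 without mouse 29 and -0.1486 without the vessels of mice 22, 24 and 26, against 0.1178; without 1 array it ran from -0.212 to 0.3707, below 0 in 5 fits (-0.0022, -0.1532, -0.0587, -0.1284 and -0.212). The cause was not tested. Signal near the receptor floor limits what can be said of dim genes.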

Other observations

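Some genes outside the lists, picked for large differences after their values were seen, were higher in vessels; they stand for no gene group, since the other genes of their kind were not counted. Among genes of the sarcomere and Z-disc, Tcap differed by 6.21, Ldb3 by 5.54, Myom1 by 5.42 and Flnc, filamin C, by 5.28. Tcap was at 12.95, 12.00 and 9.44 in the vessels of mice 22, 24 and 26, which held heart muscle transcripts, against 7.30 to 10.03 in the other 6 and at most 5.18 in septa. Ldb3 was at 11.08, 9.45 and 7.42, against 6.54 to 8.07 in the other 6 and at most 5.13 in septa. Myom1 was at 9.74, 8.98 and 8.06, against 7.16 to 10.89 in the other 6 and at most 5.37 in septa. Flnc was at 10.01, 8.11 and 11.00, against 7.73 to 10.29 in the other 6 and at most 4.71 in septa. The part of heart muscle in these differences was not tested. Dystrophin, Dmd, differed by 5.31, the sarcoglycan gene Sgcd by 4.74, and the small heat shock protein genes Hspb7 and Hspb6 by 6.04 and 4.36. Slc2a4, the insulin-responsive glucose transporter of muscle and fat, differed by 6.17, and Cygb, cytoglobin of fibroblasts and smooth muscle, by 5.70. The forkhead factors Foxc2 and Foxc1 differed by 5.51 and 4.09, the metalloprotease Adam33 by 5.64, and Penk, the enkephalin precursor, by 4.34.

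In septa the myeloid lectin receptors Clec7a and Clec4d were higher, at -3.84 and -3.45, as were the interferon-induced Oas3 (-3.62), the incretin receptor Glp1r (-3.25), the type 1 pneumocyte gene Gpm6a (-3.50), the atypical chemokine receptor Ackr2 (-3.21), the sodium channel Scn7a (-3.20) and the transcription factor Sox11 (-3.86).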
